A study of Mus musculus with 16 samples.

Results

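Stellate cells of livers injured by a blocked bile duct were compared with stellate cells of livers injured by carbon tetrachloride (CCl4). The comparison rested on 6 of the 16 arrays of the series, 3 titled for bile duct ligation and 3 titled for CCl4, and covered every measured gene. Of 7823 tested genes, 13 differed between the injuries in limma's test (adjusted p under 0.05), 11 of them higher after CCl4 and 2 higher after bile duct ligation, which together is 0.166% of the tested genes. The calcium-binding protein gene S100a4, the membrane-shaping adaptor gene Baiap2l1, the phospholipid scramblase gene Plscr2 and the zinc finger gene Bnc1 were between 7.84-fold and 12.9-fold higher after CCl4 and were called under every alternative in which they were tested. Bnc1 reached the level needed for testing only on CCl4 arrays 2 and 3. All 6 tested fibrillar collagen genes stood higher after bile duct ligation and 27 of 28 tested interferon response genes higher after CCl4, but no member of either list was called.

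Hepatic stellate cells lie between hepatocytes and the sinusoidal endothelium, store vitamin A as retinyl ester, and turn into contractile, collagen-secreting myofibroblasts when the liver is injured. Ligation of the common bile duct holds back bile and injures the tissue around the portal tracts, where bile ducts proliferate and portal fibroblasts also make scar. CCl4 is turned into a reactive radical by hepatocytes around the central veins, and scar forms there after repeated hepatocyte death.

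All mice were male Balb/c animals of 8 to 10 weeks. In the first injury group (n = 3) the common bile duct had been tied for 15 days, and in the second (n = 3) the mice had been given CCl4 in 4 intraperitoneal injections at 0.5 µl per g body weight. The quiescent group (n = 5) came from normal mice. All preparations had been purified by density centrifugation and depleted of macrophages with magnetic beads, and those of these 11 arrays were plated for 24 h before lysis. The other arrays were of cells kept for 5 days in medium with 10% fetal bovine serum, alone (culture, n = 3) or with hepatic macrophages behind a transwell insert (coculture, n = 2, where the design text names 3; the other was not analysed here). Whether the arrays of a group came from different mice, or from pools of mice, is not stated in the labels. Each p-value is therefore set against the spread of these samples alone, and that spread may be technical. The main fit takes the spread of a gene from all 16 arrays. Standard errors and p-values between the injuries thus also carry the spread within the quiescent, culture and coculture groups. The labels also do not give the time from the last CCl4 injection to isolation, and the 24 h on plastic are common to both injuries. Because the RNA is bulk, fewer cells of a type and less RNA per cell cannot be told apart.

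Values are log2 expression levels of a probe set, made with GCRMA, in which unexpressed probe sets lie near the array median of all probe sets (2.00 to 2.06). A gene was tested when it reached log2 5 on at least 2 arrays, and a difference is the bile duct ligation mean minus the CCl4 mean, so that a negative value means higher after CCl4 and a difference of 1 is a doubling of the level. Of 18193 genes, 6803 to 7037 reached log2 5 on an array. Across the tested genes Pearson correlations were 0.968 to 0.974 between bile duct ligation arrays, 0.972 to 0.983 between CCl4 arrays and 0.937 to 0.969 between the injuries. No pair of the 6 arrays shared more than 373 identical values among 45101 probe sets. The 3' minus 5' difference of the Gapdh control probe sets, a measure of RNA integrity, was -0.05 to 0.12 after bile duct ligation and -0.31 to -0.12 after CCl4. The same difference overlapped for Actb (0.40 to 0.46 and 0.39 to 0.43) and for the transferrin receptor (0.86 to 1.18 and 0.75 to 1.55). The part of RNA integrity in the differences was not tested.

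The labelled cell type was checked against 15 measured stellate markers, of which 12 or 13 reached log2 5 on each injury array. Des, the intermediate filament gene desmin, lay between 8.21 and 9.23, and Reln, which encodes reelin, between 9.97 and 11.08. The vitamin A esterifying enzyme gene Lrat was at 3.02, 3.54 and 7.77 after bile duct ligation and at 3.65, 3.44 and 4.32 after CCl4. Only bile duct ligation array 3 thus held the storage enzyme at a high level, above the quiescent mean of 5.61.

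CCl4 array 3 stood apart in markers of 2 other cell types. Of 21 hepatocyte markers, 10 reached log2 5 there, against 1 or 2 on the other 5 injury arrays and 0 on the quiescent arrays. The log2 of their summed level was 11.59 on that array, 8.81 and 9.57 on the other CCl4 arrays, 7.99 to 9.32 after bile duct ligation and 5.96 to 6.53 in quiescent cells. Albumin (Alb) was at 9.0, 7.34 and 8.40 after bile duct ligation and at 7.94, 9.26 and 10.79 after CCl4, and the cytochrome P450 gene Cyp3a11 reached 5.93 on CCl4 array 3 and at most 2.52 on the others. Mesothelial cells, the epithelium-like cover of the liver, were represented by 17 markers, of which 9 reached log2 5 on CCl4 array 3, 5 and 7 on the other CCl4 arrays, 4 or 5 after bile duct ligation and 2 on each quiescent array. Their summed level was 12.54 on CCl4 array 3, 11.20 and 11.06 on the others of that group and 10.97 to 11.80 after bile duct ligation, while Muc16 (1.08 to 1.41) and Cldn15 (1.33 to 2.44) were near background on all 6 arrays.

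Markers of bile duct cells and leukocytes were examined in the same way. The bile duct markers Krt7 (1.62 to 1.90), Epcam (1.77 to 2.62) and Sox9 (2.28 to 2.90) were near background after both injuries, and Krt19 was at most 3.01. Krt8 and Krt18, keratins shared by bile duct, mesothelial and liver epithelium, were highest on CCl4 array 3 (9.56 and 9.96). Adgre1, the gene of the surface protein used to deplete macrophages, was at most 2.56. Of 27 macrophage markers, 6 reached log2 5 on bile duct ligation array 2, 4 and 3 on the other bile duct ligation arrays and 4, 2 and 5 on the CCl4 arrays, with summed levels of 8.69 to 10.56 and 8.45 to 9.84. Of 21 portal fibroblast markers, 4, 6 and 6 reached log2 5 on the bile duct ligation arrays and 4, 4 and 7 on the CCl4 arrays, against 0 or 1 on each quiescent array. The log2 of their summed level was 9.69 to 10.71 and 9.73 to 10.45 after the injuries and 6.71 to 7.17 in quiescent cells, so the injuries overlapped and both lay above quiescent cells. Of 11 neutrophil markers 0 reached log2 5 on any injury array. The part of hepatocyte, mesothelial, portal fibroblast or macrophage RNA in the differences given next was not tested beyond the values without CCl4 array 3.

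**Figure D1:**
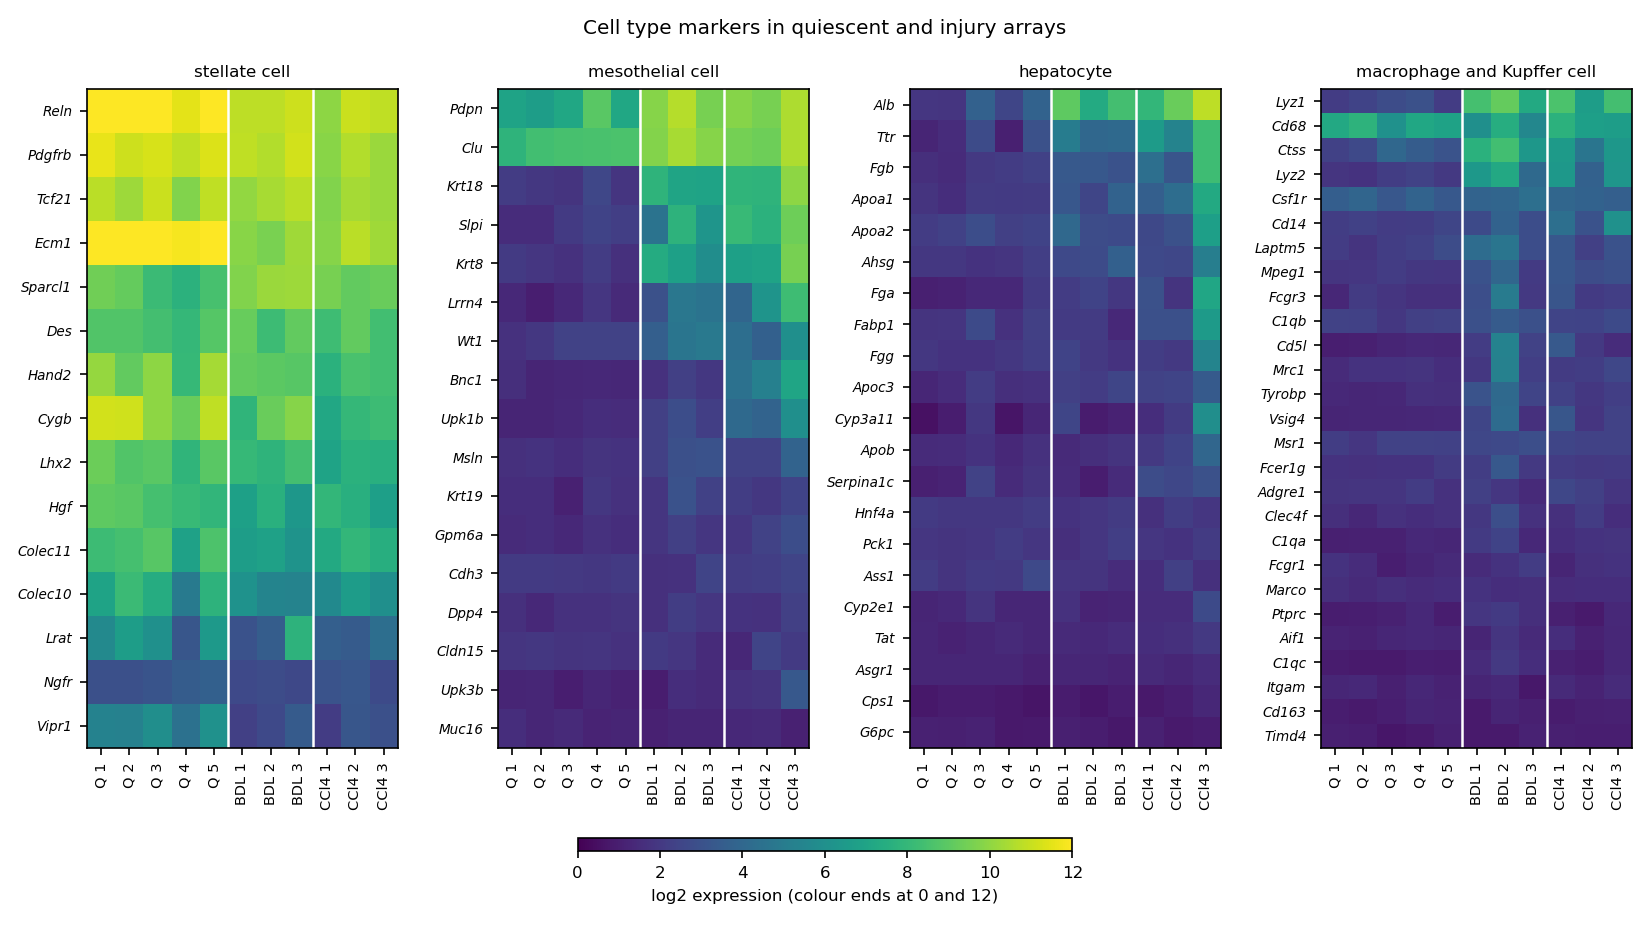
Colour gives the log2 level of each marker (rows) on the 5 quiescent (Q), 3 bile duct ligation (BDL) and 3 CCl4 arrays (columns), on one scale from 0 to 12. Most stellate markers are high on all arrays, many hepatocyte and mesothelial markers are highest on CCl4 array 3, and several macrophage markers are highest on BDL array 2.

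The 13 genes that passed the test were 0.166% of the genes tested, with 0.0256% called higher after bile duct ligation and 0.141% called higher after CCl4. At an unadjusted p under 0.05 there were 1099 genes (14.0%), 592 higher after bile duct ligation (7.57%) and 507 higher after CCl4 (6.48%). The 3 and 3 arrays did not overlap for 1983 genes (25.3%), namely 1060 higher after bile duct ligation (13.5%) and 923 higher after CCl4 (11.8%), and these shares are the background for the counts of the lists given later. The median of the absolute difference was 0.22 beside a median standard error of 0.23. A difference of at least 1 in either direction was seen in 290 genes (3.71%), 104 higher after bile duct ligation and 186 higher after CCl4. For 5772 genes (73.8%) the 95% confidence interval of the difference lay between -1 and 1, and 26 genes differed by at least 2 on the log2 scale. Against quiescent cells the same fit called 1319 genes (16.9%, of which 628 higher, 8.03% of those tested) after bile duct ligation and 1719 (22.0%, of which 744 higher, 9.51%) after CCl4, in comparisons that share the 5 quiescent arrays.

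**Figure D2:**
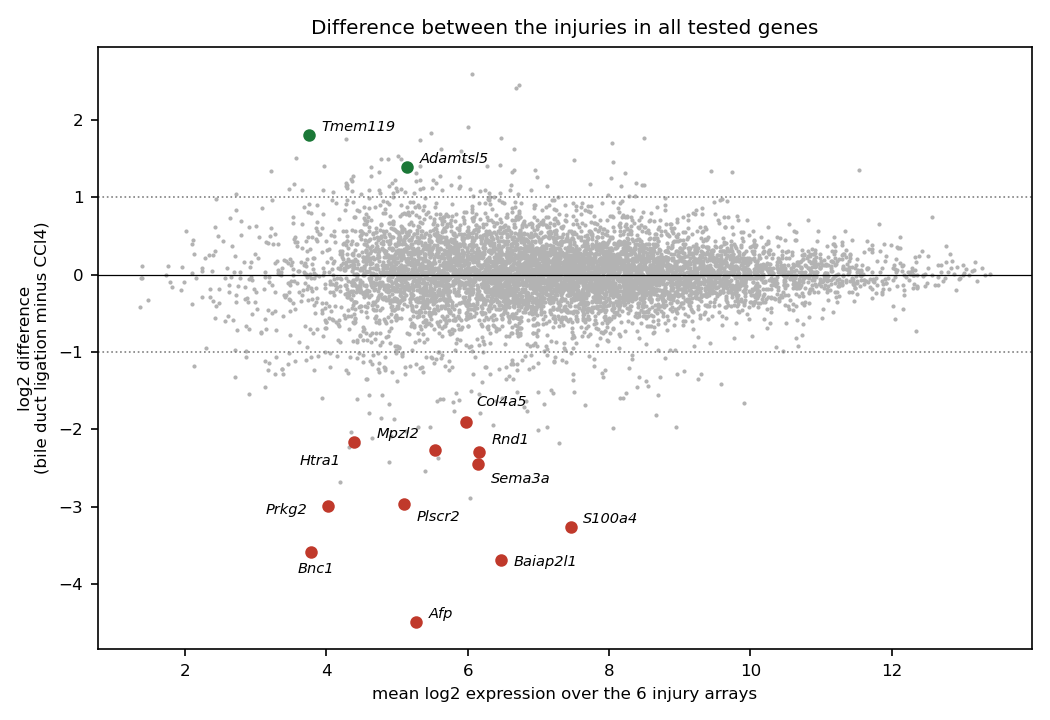
Each point is 1 of the 7823 tested genes, with its mean log2 level over the 6 injury arrays (horizontal) and its log2 difference, bile duct ligation minus CCl4 (vertical). Named points are the 13 called genes, red where higher after CCl4 and green where higher after bile duct ligation, and the dotted lines mark differences of -1 and 1.

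Upstream sequence is shown for the 3 genes with a promoter entry that were called under every alternative in which they were tested, and for Adamtsl5, the called gene with an entry that was higher after bile duct ligation. Each stretch is the 150 bases before the RefSeq start in build GRCm38.p6, 5′ to 3′ on the gene's strand. Capitals mark the GC box GGGCGG, the TATA box TATAAA and the antioxidant response motif TGACNNNGC, found on either strand. Baiap2l1 lies at chr5:144358113-144358262 (minus strand), S100a4 at chr3:90603620-90603769 (plus strand), Bnc1 at chr7:81992300-81992449 (minus strand) and Adamtsl5 at chr10:80348449-80348598 (minus strand).
Baiap2l1: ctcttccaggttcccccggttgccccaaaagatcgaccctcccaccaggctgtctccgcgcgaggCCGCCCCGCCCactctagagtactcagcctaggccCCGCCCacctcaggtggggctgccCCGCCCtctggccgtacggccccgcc
S100a4: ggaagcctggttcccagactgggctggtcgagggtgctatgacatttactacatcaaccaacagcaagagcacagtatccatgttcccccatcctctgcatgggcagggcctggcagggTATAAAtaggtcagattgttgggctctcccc
Bnc1: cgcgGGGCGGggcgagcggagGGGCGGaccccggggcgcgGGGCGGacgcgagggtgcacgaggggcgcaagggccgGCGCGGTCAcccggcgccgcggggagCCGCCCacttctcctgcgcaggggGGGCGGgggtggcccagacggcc
Adamtsl5: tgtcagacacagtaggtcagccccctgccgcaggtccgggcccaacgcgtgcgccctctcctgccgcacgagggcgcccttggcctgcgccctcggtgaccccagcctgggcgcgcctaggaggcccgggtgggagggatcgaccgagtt

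Promoter entries were found for 8 of the 13 called genes, with none for Plscr2, Tmem119, Mpzl2, Rnd1 and Prkg2. In the 250 bases before the start, GGGCGG occurred in 5 of the 8 (63.0% of the 6416 tested genes with an entry), TATAAA in 2, S100a4 and Afp (6.16%), and TGACNNNGC in 3, Bnc1, Htra1 and Adamtsl5 (12.2%). The Adamtsl5 matches lie farther upstream than the bases shown. The letters of AP-1 (TGANTCA), STAT (TTCNNNGAA), the interferon-stimulated response element, the E-box (CACGTG), TEAD (CATTCC) and EGR (GCGTGGGCG) occurred in 0 of the 8 windows, against 3.90%, 5.86%, 2.52%, 9.18%, 10.2% and 1.03% of the tested genes with an entry. These matches are descriptions of letters in a window on both strands.

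Of the genes higher after CCl4, 5 that encode proteins inside the cell or at its membrane are described first, in an order chosen for description only. Baiap2l1, whose product bends the plasma membrane and binds actin, was at 4.55, 5.16 and 4.15 after bile duct ligation and at 7.83, 8.11 and 9.01 after CCl4. All 3 CCl4 arrays were above all others, and the difference was -3.69 ± 0.38 (SE, adjusted p = 0.00025, limma), a 12.9-fold higher level after CCl4. S100a4, a calcium-binding protein gene long used as a fibroblast marker, was at 6.01, 5.85 and 5.59 after bile duct ligation and at 8.88, 8.57 and 9.82 after CCl4. It differed by -3.27 ± 0.36 (adjusted p = 0.000426, 9.68-fold), and its quiescent mean of 3.01 ± 0.49 (SD, n = 5) was below both injuries. Plscr2, of a family that moves phospholipids between membrane leaflets, was at 3.70, 3.79 and 3.33 and at 7.12, 6.16 and 6.45, a difference of -2.97 ± 0.31 (adjusted p = 0.00025, 7.84-fold). The CCl4 level of Plscr2 was near that of culture (mean 7.09) and coculture (7.77), whereas Baiap2l1 was near background in both of these groups (1.98 and 2.13). Rnd1, whose product loosens actin fibres, was at 5.91, 4.43 and 4.71 after bile duct ligation and at 7.58, 7.46 and 6.90 after CCl4, a difference of -2.30 ± 0.41 (adjusted p = 0.0344). Prkg2, a cyclic GMP-dependent protein kinase, was at 2.42, 3.43 and 1.72 and at 6.30, 4.26 and 5.99 (-2.99 ± 0.54, adjusted p = 0.0348).

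The genes Bnc1, Afp and Mpzl2 are best known from epithelial or mesothelial cells. Bnc1, a transcription factor of mesothelium and stratified epithelium that is in the mesothelial marker list, was at 1.72, 2.28 and 1.94 after bile duct ligation, near background, and at 4.46, 5.22 and 7.04 after CCl4. It differed by -3.59 ± 0.51 (adjusted p = 0.00626) and was the single called member of the 8 tested mesothelial markers. The list median was -1.17, or -0.37 without CCl4 array 3 and -0.34 over all 17 measured with no filter. Afp, the fetal plasma protein alpha-fetoprotein made by immature hepatocytes, was at 3.46, 3.17 and 2.45 after bile duct ligation and at 6.67, 6.89 and 8.98 after CCl4, a difference of -4.49 ± 0.69 (adjusted p = 0.00982). Without CCl4 array 3, which also had the highest hepatocyte markers, Afp differed by -3.75 (adjusted p = 0.0562). On the same array Bnc1, S100a4 and Baiap2l1 were at their highest as well. Without it all of them stayed called, at -2.86 (adjusted p = 0.0101), -2.91 (0.00354) and -3.35 (0.00296). Bnc1, however, reached log2 5 only on CCl4 arrays 2 and 3, and the filter was not applied anew without array 3. Its place among the tested genes in that fit thus rested on the array left out. Relative to quiescent means, the 8 tested mesothelial markers had medians of 2.02, 3.31 and 2.66 after bile duct ligation. On the CCl4 arrays these medians were 2.80, 4.31 and 6.26, so CCl4 array 2 also lay above every bile duct ligation array. In the summed level of all 17 markers it did not. Few of the 17 reached log2 5 in quiescent cells, so the 8 tested markers passed the filter largely through other arrays. Bnc1 passed only through CCl4 arrays. The rise of the 8 over quiescent means is thus largely fixed by the filter, and nothing is read from it. The part of mesothelial RNA was not tested. Mpzl2, an immunoglobulin-domain adhesion protein of epithelia, was at 3.79, 5.23 and 4.17 and at 7.14, 6.10 and 6.76 (-2.27 ± 0.40, adjusted p = 0.0344). The 2 tested hepatocyte markers, Alb and Ttr, were not called.

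Secreted and matrix genes made up the rest of the genes higher after CCl4. Sema3a, a secreted semaphorin that repels axons and acts through neuropilins, was at 5.55, 4.88 and 4.32 after bile duct ligation and at 7.76, 7.06 and 7.28 after CCl4, with a quiescent mean of 6.07 ± 0.47 (SD, n = 5) between them. The difference was -2.45 ± 0.36 (adjusted p = 0.00964). Against quiescent cells Sema3a fell by 1.16 after bile duct ligation (adjusted p = 0.0231) and rose by 1.29 after CCl4 (adjusted p = 0.0108), and it was the one called gene whose quiescent mean lay between the injuries. Col4a5, a chain of the type IV collagen of basement membranes, was at 5.20, 5.36 and 4.5 and at 7.26, 6.57 and 6.97 (-1.91 ± 0.30, adjusted p = 0.00982), from a quiescent mean of 1.17. Htra1, a secreted serine protease that cleaves matrix proteins, was at 3.13, 3.70 and 3.10 and at 6.0, 4.96 and 5.46 (-2.17 ± 0.34, adjusted p = 0.00982). Its level after bile duct ligation did not differ in the test from the quiescent mean of 2.90 (0.41, adjusted p = 0.388). The probe set used for Htra1 is of a class that can bind related sequences, and the second Htra1 probe set differed by -2.21.

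The genes higher after bile duct ligation were Adamtsl5 and Tmem119. Adamtsl5, a secreted protein of matrix microfibrils, was at 5.29, 6.11 and 6.11 after bile duct ligation and at 4.36, 4.55 and 4.43 after CCl4, a difference of 1.39 ± 0.25 (adjusted p = 0.0348). Its quiescent mean of 6.39 was above both injuries, and only CCl4 differed from it in the test (-1.94, adjusted p = 2.98e-05, against -0.55, adjusted p = 0.112). Tmem119, a transmembrane protein known from bone-forming cells and brain microglia, was at 4.64, 4.83 and 4.5 and at 2.87, 2.62 and 3.08, a difference of 1.80 ± 0.34 (adjusted p = 0.043). It stayed under log2 5 on every injury array and averaged 6.42 in culture. The next genes in this direction by p were Mn1, a transcriptional coregulator (1.76, adjusted p = 0.065), the mitochondrial carrier homologue Mtch1 (0.94, adjusted p = 0.065) and the aminopeptidase-like gene Rnpepl1 (0.90, adjusted p = 0.0701), none of them called.

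**Figure D3:**
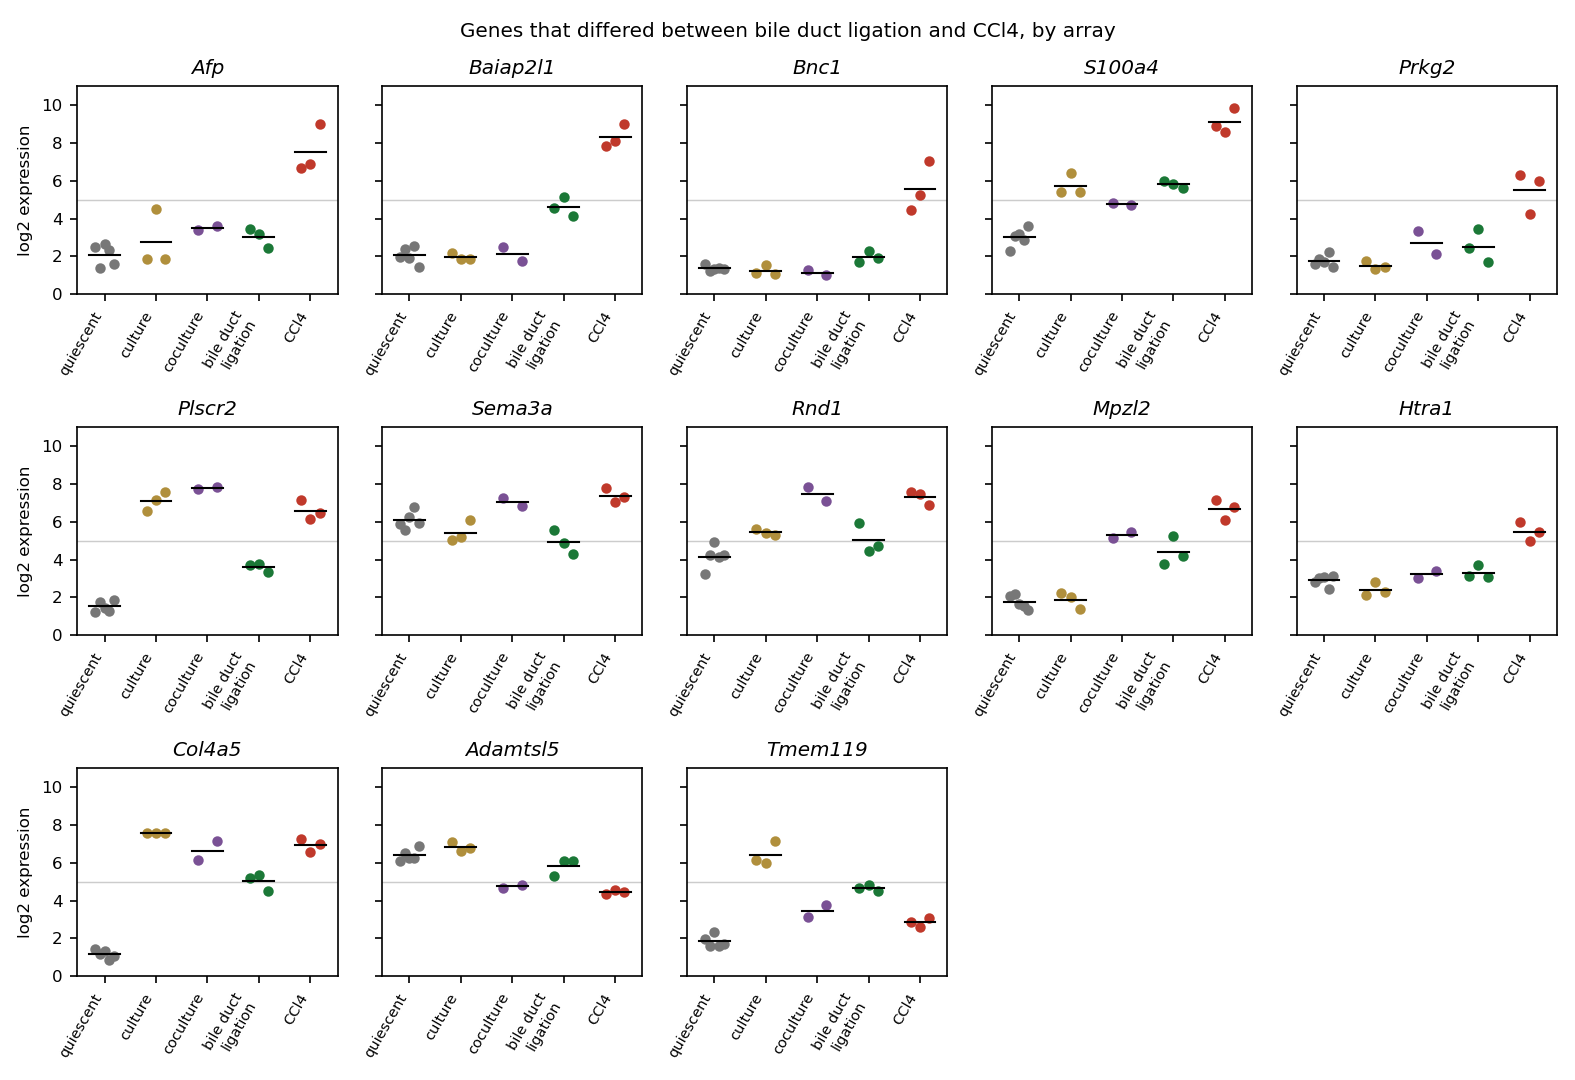
Log2 level of each called gene on every array (points) with the group mean (bar), for quiescent (5), culture (3), coculture (2), bile duct ligation (3) and CCl4 arrays (3); the grey line is log2 5. The bile duct ligation and CCl4 points do not overlap in any panel. In culture and coculture Baiap2l1 is near log2 2 and Bnc1 is below it.

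The 13 genes varied among themselves in what the other groups showed. The quiescent mean was below both injury means for 11 of them, between them for Sema3a and above both for Adamtsl5. Against quiescent cells 6 of the 13 rose and 1 fell after bile duct ligation, beside 8.03% and 8.83% of all tested genes, and 12 rose and 1 fell after CCl4, beside 9.51% and 12.5%. Nothing is read from these shares, since both comparisons share arrays with the one that selected the genes. Culture and coculture arrays were not part of the contrast. There 3 of the 13 were higher in coculture than in culture, Mpzl2 (3.41), Rnd1 (2.04) and Sema3a (1.63), and 2 were lower, Tmem119 (-2.95) and Adamtsl5 (-2.09), beside 8.37% of all tested genes called higher and 7.03% called lower in that comparison. In culture against quiescent cells 5 rose and 0 fell, beside 42.1% of all tested genes called, 18.5% higher and 23.5% lower. Tmem119, counted in both comparisons, passed the filter only through the culture arrays (6.12, 6.01 and 7.15). Its direction in them was thus largely fixed by the filter, and nothing is read from it. Other probe sets were present for 8 of the 13 genes, and 13 of these 14 had the same direction and 11 did not overlap between the injuries. The exception was an Afp probe set near background (2.02 against 1.52). Some that shared the direction were near background too, among them probe sets of Afp (1.64 to 2.12), Mpzl2 (1.48 to 2.44) and Prkg2 (1.30 to 1.84). Another Prkg2 probe set overlapped, with 3.43, 1.95 and 1.55 against 2.60, 3.08 and 3.80.

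Levels after bile duct ligation averaged under log2 4 for 5 of the genes higher after CCl4, namely Plscr2, Bnc1, Afp, Htra1 and Prkg2, so the size of these differences depends on the background estimate. Bnc1, Afp, Htra1 and Prkg2 reached log2 5 only on CCl4 arrays, and Baiap2l1 otherwise only on bile duct ligation array 2 (5.16). The filter thus admitted these genes through the group where they were high. With no filter they were called as well (adjusted p = 0.000399, 0.00498, 0.00248, 0.00962 and 7.36e-05, limma). Of the genes called, 9 lost the call without at least 1 array, each keeping its direction. Afp lost it also without bile duct ligation array 3 (-4.20), Sema3a without bile duct ligation array 3 (-2.15), CCl4 array 1 (-2.26) or 3 (-2.50), and Col4a5 without the same arrays (-1.65, -1.75 and -1.89). Htra1 lost it without bile duct ligation array 1 (-2.07) or 3 (-2.06) or CCl4 array 1 (-1.90) or 3 (-2.17), and Mpzl2 without those arrays (-1.96, -2.15, -2.03 and -2.22) or culture array 2. Prkg2 lost it without bile duct ligation array 1 (-2.94) or 3 (-2.59), CCl4 array 1 (-2.60) or 3 (-2.76), quiescent array 1 or 2 or culture array 2. Rnd1 lost it without any injury array other than bile duct ligation array 1 (-2.50 to -2.0), quiescent array 2 or culture array 2. Adamtsl5 lost it without any injury array other than bile duct ligation array 1 (1.25 to 1.44), quiescent array 2, culture array 2 or either coculture array. Tmem119 lost it without any injury array (1.68 to 1.92), quiescent array 1, 2 or 5 or culture array 1 or 2. Where a quiescent, culture or coculture array was left out, the difference itself stayed as it was.

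The collagen genes that make scar were next set side by side. All 6 tested fibrillar collagen genes had a positive difference and 0 were called, with a median of 0.70 beside 0.009 over all tested genes. Over all 9 measured with no filter the median was 0.65 and Col11a1 was called. The arrays did not overlap for 5 of the 6 (83.3%, beside 13.5% of all tested genes in that direction). Portal fibroblast markers leaned the same way among those tested (6, median 0.82) but not over all 21 measured (0.01 with no filter), and their part in the collagen difference was not tested. Col1a1, the main chain of type I collagen, was at 11.88, 12.15 and 12.61 after bile duct ligation and at 10.81, 11.01 and 10.76 after CCl4, from a quiescent mean of 7.96. On the probe set used every bile duct ligation array was above every CCl4 array, and the difference was 1.35 ± 0.43 (adjusted p = 0.202). The other Col1a1 probe set differed by 0.78 in the same direction (means 8.15 and 7.37), and its arrays overlapped. In a fit of the 6 injury arrays alone Col1a1 was called (SE 0.17, adjusted p = 0.0247), as it was with array weights (adjusted p = 0.0378). The array weight fit called 173 genes against 13 in the main fit, and its estimation did not fully converge. Col1a2, the partner chain, stood 0.65 ± 0.28 higher (adjusted p = 0.318) and Col3a1, type III collagen, 0.75 ± 0.55 higher (adjusted p = 0.571). For Col5a3, a minor type V collagen chain, the arrays overlapped, with 4.52, 7.98 and 6.2 against 4.86, 5.14 and 4.91.

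Enzymes that modify and cross-link collagen leaned the same way. Of 20 tested genes 18 had a positive difference, 11 did not overlap (55%) and 0 were called, with a median of 0.35. P3h2, a prolyl 3-hydroxylase that acts on basement membrane collagen, was at 7.33, 6.5 and 7.09 after bile duct ligation and at 5.05, 5.84 and 5.83 after CCl4 (1.40 ± 0.30, adjusted p = 0.0743). Lox, the lysyl oxidase that starts cross-links, was at 10.12, 9.95 and 9.78 and at 9.07, 8.77 and 9.19, from a quiescent mean of 4.37. All bile duct ligation arrays of Lox were higher, by 0.94 ± 0.34 on average (adjusted p = 0.239, and 0.0361 in the fit of the 6 arrays). Plod2, a lysyl hydroxylase, stood 0.79 higher (adjusted p = 0.225) and Loxl1 overlapped (-0.44, adjusted p = 0.496).

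Other matrix lists were mixed. Among 11 basement membrane genes Col4a5 was the single call, with a list median of 0.06. Col4a1 and Col4a2, the common type IV collagen chains, differed in the opposite direction to Col4a5, by 0.37 and 0.56, and were not called (adjusted p = 0.267 and 0.229). Among 21 matrix proteases and inhibitors Htra1 was the single call, with a median of 0.13. Timp1, the inhibitor of collagenases, was at 11.05, 11.24 and 11.23 after bile duct ligation and at 10.61, 10.24 and 10.57 after CCl4 (0.70 ± 0.70, adjusted p = 0.703, and 0.0499 in the fit of the 6 arrays). Its spread was widest in culture (8.29, 9.07 and 5.16), and its standard error in the fit of the 6 arrays was 0.12. Mmp13, the rodent collagenase, overlapped (0.57 ± 1.07), as did Mmp2, a gelatinase (-0.18 ± 0.34). Of 7 other collagen genes and 20 elastic fibre and matricellular genes 0 were called (medians 0.11 and 0.22).

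The contractile apparatus of the myofibroblast was covered by smooth muscle genes. Of 22 tested contractile genes 0 were called, with a median of 0.16. The arrays did not overlap for 3 in favour of bile duct ligation (13.6%) and 1 in favour of CCl4 (4.55%). The shares over all tested genes were 13.5% and 11.8%. Acta2, the smooth muscle actin that marks myofibroblasts, was at 13.10, 12.98 and 13.13 and at 12.77, 13.09 and 12.95, overlapping, with a difference of 0.13 whose 95% interval ran from -0.31 to 0.58. Ccn2, a matricellular growth factor, differed by -0.08 (interval -0.74 to 0.58). Myh11, the smooth muscle myosin heavy chain, was at 7.03, 5.12 and 5.66 and at 7.16, 8.72 and 7.06 (-1.71 ± 0.54, adjusted p = 0.203).

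Lists of the quiescent state and of growth factor signalling held 0 called genes. The median of 21 quiescence and retinoid storage genes was 0.27. The arrays did not overlap for 5 in favour of bile duct ligation (23.8%) and 2 in favour of CCl4 (9.52%). Over all tested genes these shares were 13.5% and 11.8%. Pth1r, the parathyroid hormone receptor, was at 7.44, 7.69 and 8.00 and at 5.95, 7.17 and 7.09 (0.97 ± 0.29, adjusted p = 0.176), below a quiescent mean of 8.95. Aldh1a1, which makes retinoic acid, was at 6.98, 5.03 and 6.68 and at 7.55, 7.35 and 8.34 (-1.52 ± 0.51, adjusted p = 0.221). Reln differed by 0.27, Hgf, the hepatocyte growth factor gene, by -0.51, and Nr1h4, the bile acid receptor FXR, by 0.45 ± 0.57 (adjusted p = 0.77). Other Hgf probe sets differed by -0.87 and 0.65, and the arrays overlapped for each. The median of 23 genes of the TGF-beta pathway, which drives collagen synthesis in these cells, was 0.34. Of the 23, 7 did not overlap in favour of bile duct ligation (30.4%) and 2 in favour of CCl4 (8.7%). Tgfb1 was at 8.38, 8.73 and 8.05 and at 7.22, 7.81 and 7.86 (0.76 ± 0.36, adjusted p = 0.354). Pdgfrb, the receptor for the mitogen PDGF, was at 10.83, 10.63 and 11.16 and at 9.86, 10.61 and 10.18 (0.66 ± 0.19, adjusted p = 0.174). The list of PDGF, FGF, HGF and EGF signalling genes to which Pdgfrb belongs leaned the other way, with 8 of 12 tested genes higher after CCl4, 5 not overlapping in that direction (41.7%) against 1 for bile duct ligation (8.33%), and 0 called. Its median was -0.17, or -0.03 over all 22 measured genes with no filter. The 5 were the receptors Met (-1.26, adjusted p = 0.259) and Egfr (-0.43, 0.468), and the growth factors Fgf2 (-1.32, 0.343), Hbegf (-1.05, 0.704) and Ereg (-0.99, 0.574).

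Interferon response genes had the lowest median of the 36 pathway lists with at least 5 tested genes. Of 28 tested, 27 stood higher after CCl4 and 0 were called, with a median of -0.99. The arrays did not overlap for 17 of the 28 (60.7%, beside 11.8% of all tested genes in that direction). Usp18, which removes the ubiquitin-like protein ISG15, was at 7.06, 6.95 and 8.14 after bile duct ligation and at 9.04, 9.32 and 8.60 after CCl4 (-1.60 ± 0.75, adjusted p = 0.354). Stat2, a transcription factor of the interferon pathway, was at 4.44, 4.78 and 5.98 and at 6.51, 6.98 and 6.31 (-1.53 ± 0.53, adjusted p = 0.227), and Ifih1, a sensor of double-stranded RNA, differed by -1.24 ± 0.37 (adjusted p = 0.186). Relative to the quiescent mean of each gene the median of the list was -1.06, -1.02 and -0.25 on the bile duct ligation arrays and -0.06, 0.58 and -0.11 on the CCl4 arrays. Bile duct ligation arrays 1 and 2 were thus the low ones, and array 3 lay close to CCl4 arrays 1 and 3. Against quiescent cells 5 of the 28 fell after bile duct ligation, among them Gbp6 (-2.50) and Ifih1 (-1.16), beside 8.83% of all tested genes lower, and 0 were called after CCl4, beside 12.5% lower and 9.51% higher. Leaving out 1 array at a time moved the list median between -1.22 and -0.73. Rsad2, an antiviral enzyme gene, was called in the fit of the 6 injury arrays, and Irf9, Stat2 and Ifih1 with array weights, whose estimation did not fully converge.

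**Figure D4:**
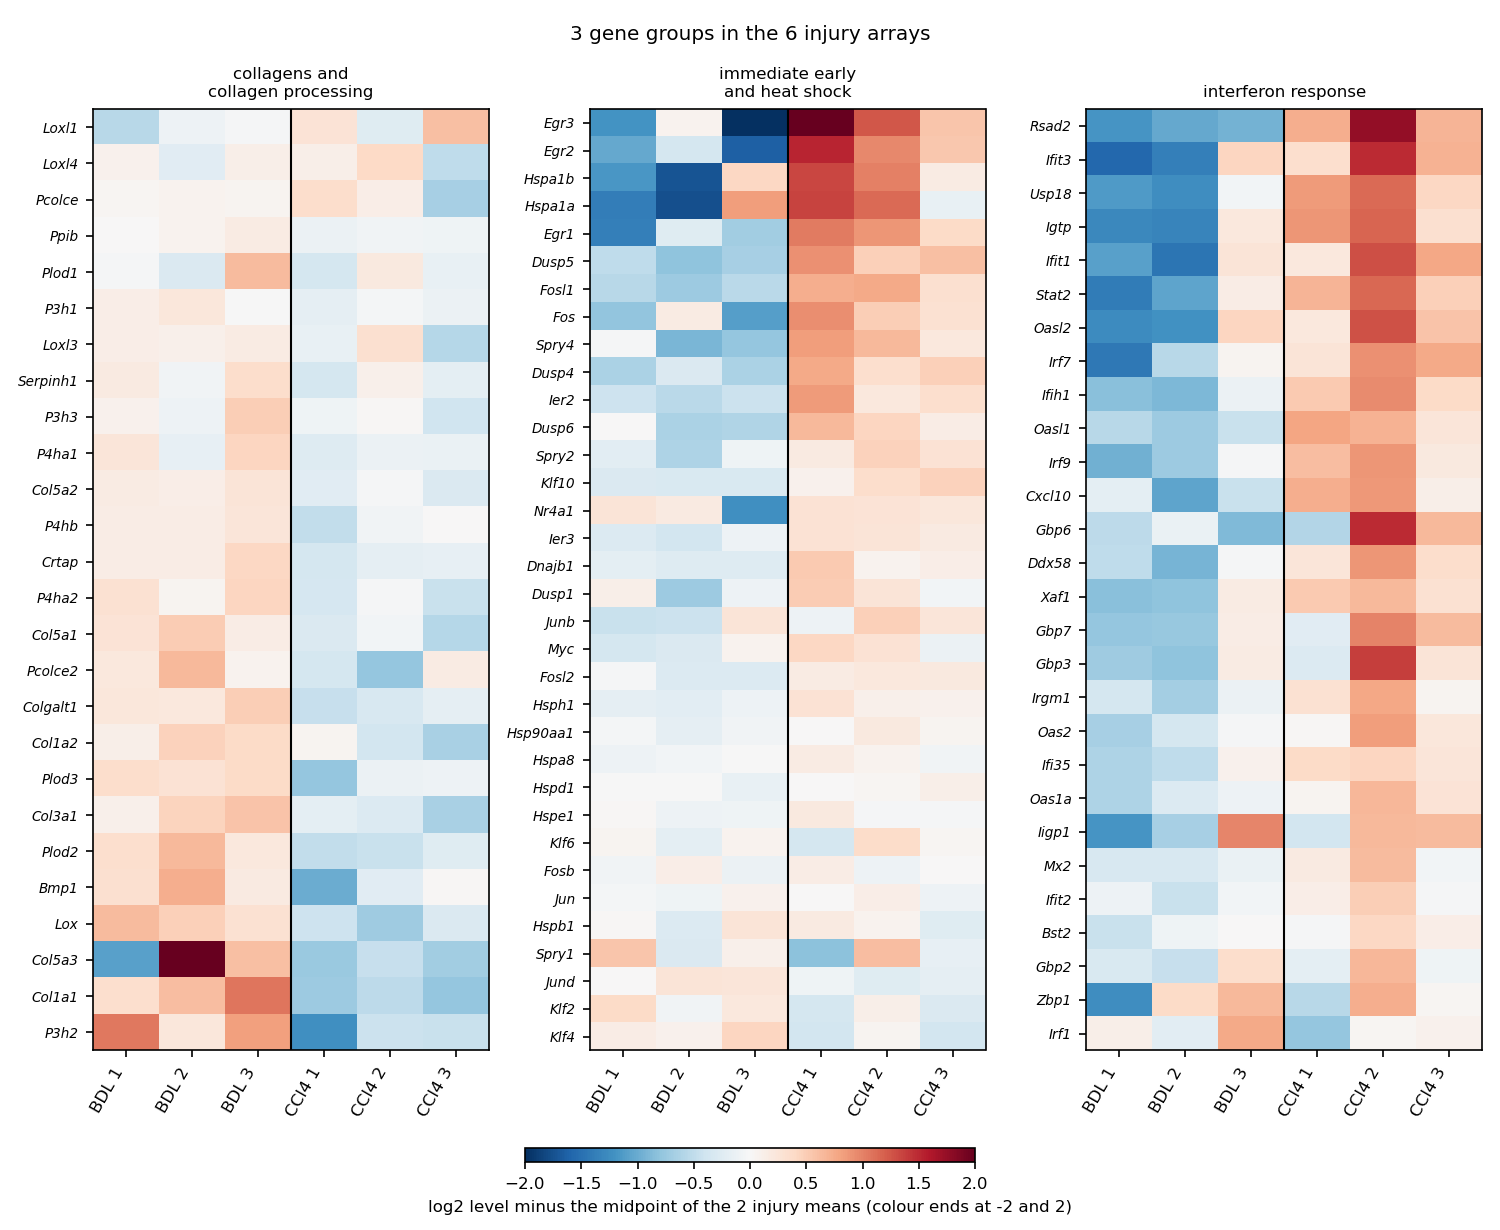
Colour gives each gene's log2 level on 1 array minus the midpoint of the 2 injury means, for collagen and collagen processing genes (left), immediate early and heat shock genes (middle) and interferon response genes (right), on the 3 bile duct ligation (BDL) and 3 CCl4 arrays. Red is above and blue below the midpoint. Most collagen genes are red left of the black line, most interferon genes are red right of it, and BDL array 3 is pale for many interferon genes.

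Immediate early and heat shock genes, which respond within minutes to growth factors and stress, leaned toward CCl4. Of 34 tested 30 stood higher after CCl4, 18 did not overlap in that direction (52.9%) and 0 were called, with a median of -0.47. Egr2 was at 5.97, 6.64 and 5.36 after bile duct ligation and at 8.52, 7.95 and 7.53 after CCl4 (-2.01 ± 0.91, adjusted p = 0.343). Fosl1, an AP-1 subunit, was at 7.73, 7.56 and 7.74 and at 9.01, 9.04 and 8.61 (-1.21 ± 0.68, adjusted p = 0.445), and Dusp5, which switches off ERK kinase, at 7.41, 7.12 and 7.26 and at 8.83, 8.39 and 8.52 (-1.32 ± 0.91, adjusted p = 0.545). The injuries did not overlap for any of these 3 genes, and the fit of the 6 injury arrays called 4 members of the list, namely Fosl1, Egr2, Dusp4 and Dusp5. In that fit the standard errors of Egr2, Fosl1 and Dusp5 were 0.34, 0.16 and 0.17. The heat shock gene Hspa1b overlapped, since bile duct ligation array 3 (10.32) was above CCl4 array 3 (10.07). Jun differed by -0.02 and Klf4 by 0.45.

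Chemokine, cytokine and NF-kB genes leaned toward CCl4 as well, with 0 called. The median of 16 chemokine and cytokine genes was -0.87, with 5 that did not overlap in favour of CCl4 (31.2%), and over all 32 measured members with no filter it was -0.06. That of 21 NF-kB targets was -0.36, with 8 that did not overlap in favour of CCl4 (38.1%). Ccl2, which attracts monocytes, was at 7.46, 8.01 and 8.27 and at 8.91, 10.01 and 9.49 (-1.56 ± 0.50, adjusted p = 0.203). With array weights, whose estimation did not fully converge, Ccl2 was called (-1.82, adjusted p = 0.0295). Cxcl1, which attracts neutrophils, was at 7.42, 8.70 and 8.81 and at 9.53, 9.84 and 9.44 (-1.29 ± 0.55, adjusted p = 0.31), and Nfkbia, the inhibitor of NF-kB, at 10.05, 10.07 and 10.59 and at 10.99, 11.13 and 11.04 (-0.82 ± 0.18, adjusted p = 0.0769). Il6 overlapped (-1.11 ± 1.17). The opposite direction was seen in Lcn2, an iron-binding lipocalin, at 9.13, 9.64 and 9.37 and at 6.67, 7.53 and 8.62 (1.77 ± 0.59, adjusted p = 0.219), and in the chemokine Cxcl14 at 10.34, 10.69 and 10.18 and at 9.72, 8.58 and 8.92 (1.33 ± 0.98, adjusted p = 0.57).

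Of 13 tested mitosis genes and 21 tested DNA replication genes 0 were called between the injuries. Of 29 measured mitosis genes, 10, 6 and 8 reached log2 5 on the bile duct ligation arrays and 9, 8 and 12 on the CCl4 arrays, against 0 or 1 on each quiescent array. The 13 that were tested passed the filter largely through arrays other than the quiescent ones, so a count of them above quiescent cells would be largely fixed by the filter and is not given. Between the injuries 2 of the 13 did not overlap, both higher after CCl4 (15.4%, beside 11.8% of all tested genes). The median was -0.50, or -0.38 over all 29 with no filter. Without bile duct ligation array 2, where all of them were lowest, the median was 0.05. Cdk1, the mitotic kinase, was at 7.56, 6.65 and 7.61 and at 6.69, 7.18 and 7.46, against a quiescent mean of 2.74. Of 21 DNA replication genes 17 had a positive difference and 5 did not overlap in favour of bile duct ligation (23.8%), with a median of 0.43. The helicase subunit gene Mcm2 was at 8.18, 7.64 and 8.58 and at 7.17, 7.44 and 7.35 (0.81 ± 0.24, adjusted p = 0.175), and Uhrf1, which maintains DNA methylation, at 7.02, 5.77 and 6.61 and at 4.63, 5.61 and 5.71 (1.15 ± 0.35, adjusted p = 0.187).

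Metabolic and housekeeping lists had small medians, though oxidative phosphorylation and lysosome genes leaned toward bile duct ligation. The median of 17 cytosolic ribosomal protein genes was 0.00, that of 23 oxidative phosphorylation genes 0.12 with 8 that did not overlap in favour of bile duct ligation (34.8%), and that of 23 lysosome and proton pump genes 0.26 with 8 (34.8%). The difference was positive for 19 of the 23 oxidative phosphorylation genes and 20 of the 23 lysosome and proton pump genes. In both lists 0 did not overlap in favour of CCl4 and 0 were called. Of 33 oxidative stress and glutathione genes 7 did not overlap in favour of CCl4 (21.2%) and 0 were called, with a median of -0.06. Gsta3, a glutathione transferase, was at 5.87, 6.14 and 5.49 and at 7.06, 6.55 and 7.53 (-1.22 ± 0.27, adjusted p = 0.0818), and Gsta2 at 8.22, 7.77 and 7.03 and at 9.35, 8.90 and 9.13 (-1.45 ± 0.37, adjusted p = 0.138). Hmox1, the heme-degrading stress enzyme, was at 9.32, 9.65 and 9.89 and at 10.80, 10.39 and 10.08 (-0.80 ± 0.49, adjusted p = 0.489). Of 6 tested portal fibroblast markers 4 had a positive difference and 0 were called, with a median of 0.82, against 0.43 with probe sets averaged and 0.01 over all 21 measured with no filter. Among them the matrix Gla protein gene Mgp was at 7.61, 9.47 and 9.55 and at 7.04, 7.49 and 8.19, and Fbln2, a fibulin of elastic fibres, at 8.07, 8.45 and 8.53 and at 7.64, 7.28 and 8.46.

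**Figure D5:**
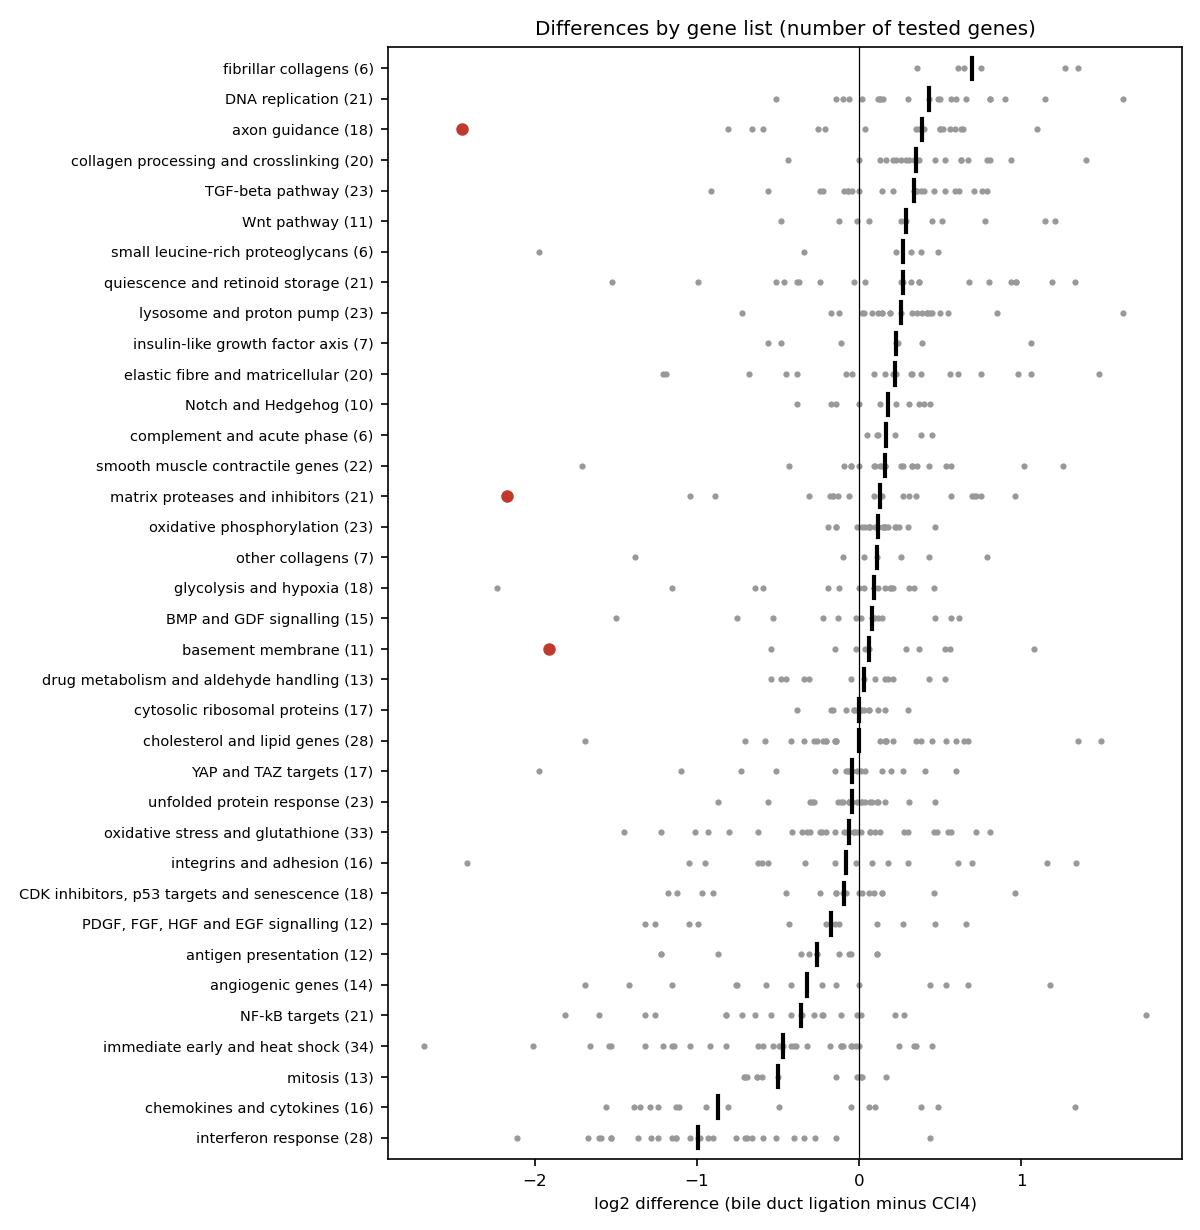
Each grey point is the log2 difference, bile duct ligation minus CCl4, of 1 tested gene, by gene list (rows, with the number of tested genes); black bars are list medians and red points are called genes. Medians run from -0.99 for interferon response to 0.70 for fibrillar collagens, and Sema3a, Htra1 and Col4a5 lie far to the left of their lists.

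A set of 24 activation and quiescence genes was reported whether called or not. Of these, 22 were tested and 0 were called, and 15 had a positive difference. The arrays of 9 did not overlap between the injuries, beside 25.3% of all tested genes in either direction. Those 9 were Col1a1, Col1a2, Col3a1, Lox, Timp1, Pdgfrb and Tgfb1, higher after bile duct ligation, and Ccl2 and Hmox1, higher after CCl4. Thy1, a portal fibroblast and lymphocyte surface protein, stayed below the filter at 2.99 to 5.37, and Spp1 was not analysed here. For Cdkn1a, the p21 cell cycle inhibitor, the arrays overlapped (-0.14 ± 0.50).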

How the data were processed

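Log2 expression values of 45101 probe sets on 16 arrays, as the authors deposited them, were used. The submitters' processing notes name GCRMA, a method that removes probe background with a sequence model and sets arrays to one distribution. The version and options were not given in the sources used here. Annotation gave 1 gene symbol to 34945 probe sets, several to 932 and none to 9160 others; 64 control probe sets were left out. For each of 18193 genes the probe set with the largest 16-array mean was kept. The 7823 genes reaching log2 5 on 2 or more arrays were tested in 1 linear model with 5 group means (limma 3.58.1, lmFit and eBayes with a trend, R 4.3.3; two-sided; Benjamini-Hochberg over all tested genes, called under 0.05). The fit was tested on simulated data. All 5 groups entered so that groups of 3 shared 1 estimate of the spread. Replicate numbers were not taken to pair the samples and were not a block in this model. Depth does not apply to arrays, whose number limits the precision; scan batches were not analysed here.

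The genes and lists were chosen with earlier results of these data known. Named genes were the called genes whose arrays did not overlap (up to 16 a direction, without unnamed clones), the 5 of smallest p where a direction held under 5 of them, up to 4 called members of a list, a set of 24, and list members given beside their counts. Lists are described by counts and medians, without a set test. Promoter sequences are from RefSeq, build GRCm38.p6. The alternatives were other filters, the mean of a gene's probe sets, the 6 injury arrays alone with or without a replicate block, centring, array weights, no trend, leaving out each array, and leaving out quiescent array 4, culture array 3 and CCl4 array 3 together. The filter was not applied anew where arrays were left out.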

Additional observations from a re-analysis of the deposited data

Results flagged for a closer look

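Sema3a moved to opposite sides of the quiescent mean in the injuries. All 3 bile duct ligation arrays (5.55, 4.88 and 4.32) were below the quiescent mean of 6.07 and all 3 CCl4 arrays (7.76, 7.06 and 7.28) above it, and the difference between the injuries was -2.45 (adjusted p = 0.00964, limma). The other probe sets of the gene differed by -1.98 and -1.93 without overlap. The call was lost without bile duct ligation array 3 (adjusted p = 0.0658), CCl4 array 1 (0.0808) or CCl4 array 3 (0.0562).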

How the results depend on the processing

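The 13 calls (2 higher after bile duct ligation and 11 higher after CCl4) became 43 (7 and 36) with no filter, 4 (0 and 4) with the filter at log2 7, 12 (1 and 11) with the filter on the 6 injury arrays, 20 (4 and 16) when probe sets of a gene were averaged, 40 (10 and 30) in the fit of the 6 injury arrays alone, 33 (8 and 25) with a replicate block in that fit, 173 (82 and 91) with array weights, whose estimation did not fully converge, 16 (3 and 13) without the trend, and 8 (2 and 6) without quiescent array 4, culture array 3 and CCl4 array 3 together. Of the 13 genes, 13 were shared with the calls under array weights, 11 with those of the 6 arrays alone and 8 with those under the block. Centring the arrays left 13. Leaving out 1 array at a time gave 4 to 20 calls, 0 to 5 higher after bile duct ligation and 4 to 15 higher after CCl4; the fewest came without CCl4 array 3 (4), CCl4 array 1 (5), bile duct ligation array 3 (5) and culture array 2 (8). The cause was not tested. Same-numbered arrays of the injuries correlated at 0.12, -0.26 and 0.06 in their deviations from the group means. Arrays of different number correlated at -0.21 to 0.21. Deviations within a group of 3 arrays sum to 0, so these values cannot decide whether the numbers pair samples.

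For the 38 named genes, 881 of 974 values under the alternatives kept direction and side of the threshold, 68 lost the call, 16 gained it and 9 changed sign, all of genes that were not called. These were Mmp2 without bile duct ligation array 1 (0.02), without CCl4 array 3 (0.12) and without the 3 arrays together (0.12), Lrat without bile duct ligation array 3 (-0.53), Reln without CCl4 array 1 (-0.06), Cdk1 without bile duct ligation array 3 (-0.00) or CCl4 array 1 (-0.04), and Cdkn1a without bile duct ligation array 2 (0.32) or CCl4 array 2 (0.02). Leaving out 1 array at a time, the difference ran from -0.38 to 0.12 for Mmp2, -0.53 to 1.85 for Lrat, -0.06 to 0.48 for Reln, -0.04 to 0.48 for Cdk1 and -0.49 to 0.32 for Cdkn1a. The array number limits what can be called, and levels near log2 2 depend on the background step.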

Other observations

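Of the 26 genes that differed by at least 2 on the log2 scale, 16 were not called, 3 higher after bile duct ligation and 13 higher after CCl4; those named here were chosen after their values were seen. The largest of them after bile duct ligation were the chemokine gene Ccl6 (2.59, adjusted p = 0.138, limma), the purine enzyme gene Gda (2.45, 0.352) and the acute phase inhibitor Serpina3n (2.42, 0.374). After CCl4 they included Bmp10, a bone morphogenetic protein (-2.89, 0.065), Rassf6, a Ras association domain gene (-2.54, 0.0983), the laminin receptor subunit Itga6 (-2.42, 0.0728) and the oxygen-sensing prolyl hydroxylase Egln3 (-2.23, 0.0769). The arrays of Gda overlapped between the injuries, and those of the other 6 did not.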
